A study of Mus musculus with 8 samples.

Results

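The fibroblast growth factors (FGFs) Fgf1, Fgf2, Fgf5, Fgf7, Fgf10, Fgf13 and Fgf18 and the FGF receptors Fgfr1, Fgfr2 and Fgfr3 were examined in skin fibroblasts. All probes carrying 1 of these 10 symbols were taken, which gave 19 of the 25697 probes on the array, and 10 of its 18138 gene symbols. Each of 8 mice gave 1 Illumina MouseRef-8 v2.0 array. The Nd2-mutant fibroblasts came from 4 mice of the strain C57BL/6J-mtALR/LtJ (males 28 and 32, females 34 and 35). The control fibroblasts came from 4 mice of the strain C57BL/6J-mtAKR/J (males 16 and 17, females 15 and 37). All mice were 12 months of age. Both strains are conplastic, that is, they carry the nuclear genome of C57BL/6J with the mitochondrial genome of a donor strain, and the mutant differs from the control in Nd2, a mitochondrially encoded subunit of respiratory chain complex I. The cells were early-passage primary cultures grown in medium with fetal calf serum and the labels name no treatment, so that the values describe cultured cells and not the skin.

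FGFs are secreted proteins that bind heparan sulphate on the cell surface and, together with it, bring FGF receptors into pairs, which switches on the receptors' tyrosine kinase and, through adaptor proteins, the Ras, Raf, MEK and ERK kinase cascade. Dermal fibroblasts are a known source of Fgf7 and Fgf10, which act on the epithelial form of Fgfr2 carried by keratinocytes, while fibroblasts themselves respond to Fgf2 mainly through Fgfr1. Fgf5 is known in skin as the factor that ends the growth phase of the hair follicle, and Fgf13 is an intracellular member of the family that is not secreted.

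The 250 bases in front of the transcription start are given for Fgf2, Fgf5 and Fgf10, because the results below turn on these 3 ligands. RefSeq's promoter table (build GRCm38.p6) held 8 of the 10 members, not Fgf1 and Fgfr1. The windows are chr3:37348403-37348652 for Fgf2, chr5:98253934-98254183 for Fgf5 and chr13:118714449-118714698 for Fgf10, all on the plus strand, and run 5′ to 3′ with the match to GGGCGG, the core of the GC box, in capitals (CCGCCC where it lies on the opposite strand).
Fgf2: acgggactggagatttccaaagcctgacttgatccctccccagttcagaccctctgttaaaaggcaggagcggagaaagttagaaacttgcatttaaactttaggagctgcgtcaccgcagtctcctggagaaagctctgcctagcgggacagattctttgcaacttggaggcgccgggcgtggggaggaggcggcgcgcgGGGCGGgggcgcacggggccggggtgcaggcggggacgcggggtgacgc
Fgf5: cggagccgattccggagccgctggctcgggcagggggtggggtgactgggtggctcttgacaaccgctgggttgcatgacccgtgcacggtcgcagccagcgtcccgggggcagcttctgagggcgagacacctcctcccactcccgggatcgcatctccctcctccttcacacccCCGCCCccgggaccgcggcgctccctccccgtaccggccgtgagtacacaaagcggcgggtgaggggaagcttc
Fgf10: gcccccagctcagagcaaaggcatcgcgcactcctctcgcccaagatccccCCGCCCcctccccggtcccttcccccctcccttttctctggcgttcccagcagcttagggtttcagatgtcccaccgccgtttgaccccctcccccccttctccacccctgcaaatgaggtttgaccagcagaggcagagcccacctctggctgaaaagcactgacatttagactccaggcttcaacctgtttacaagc
All 3 windows were rich in G and C, with 62.4% for Fgf2, 70.8% for Fgf5 and 61.2% for Fgf10. Each held 1 match to GGGCGG on either strand, which began 49 bases before the start in Fgf2, 74 in Fgf5 and 199 in Fgf10. This motif was found in 32.7% of 32851 promoter windows of the same length. No match was found in the 3 windows, on either strand, to the TATA box letters TATAAA, held by 12.4% of all windows, to the AP-1 site TGANTCA, held by 6.75%, or to the ETS site CCGGAAGT, held by 2.88%. The motifs do not overlap each other in these windows, and a match describes only the letters.

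Only part of the family gave a signal in these cells. A probe was counted as detected on an array at a detection p-value under 0.01. The 19 probes split into 8 that were detected on at least 1 array and 11 that were detected on 0 of 8 arrays. Detected probes belonged to the ligands Fgf2, Fgf5, Fgf7 and Fgf10, to Fgf13, and to a single receptor, Fgfr1. Fgf1, Fgf18, Fgfr2 and Fgfr3 had no detected probe, so 4 of the 10 genes did not reach the detection threshold in either strain.

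**Figure D1:**
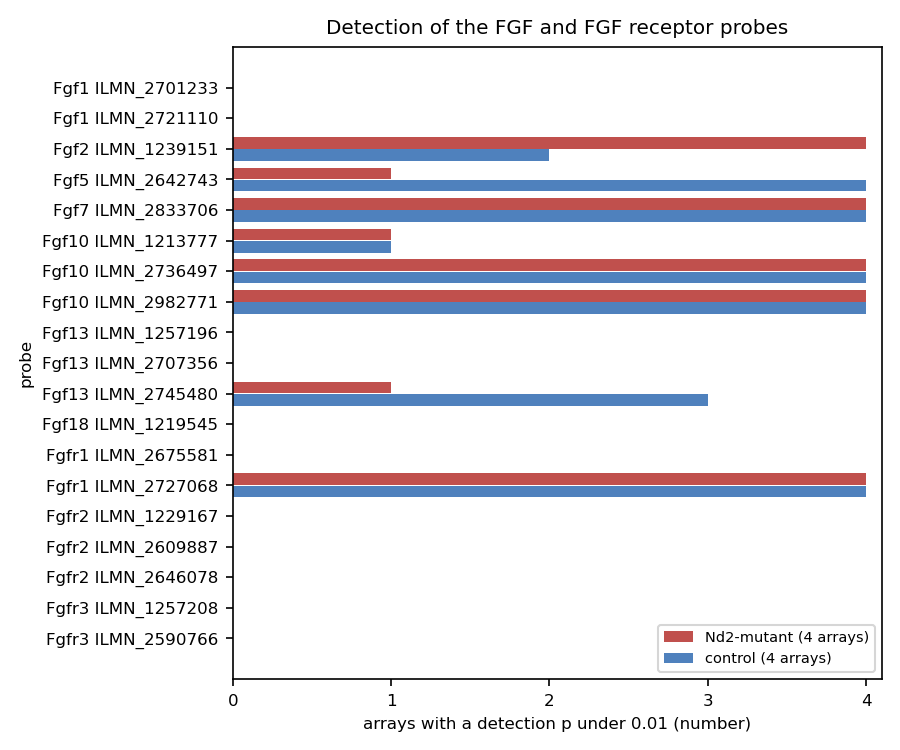
Number of arrays, of 4 per strain, on which each of the 19 FGF and FGF receptor probes had a detection p under 0.01 (x axis), for Nd2-mutant (red) and control (blue) mice. Fgf7, 2 probes of Fgf10 and 1 probe of Fgfr1 were detected on all 8 arrays, whereas Fgf2 was detected on 4 Nd2-mutant and 2 control arrays and Fgf5 on 1 Nd2-mutant and 4 control arrays.

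The undetected receptor probes stayed short of the detection threshold on every array. Their lowest detection p was 0.0251, for the Fgfr2 probe ILMN_2609887 in Nd2-mutant mouse 28. The 3 probes of Fgfr2, the receptor of Fgf7 and Fgf10, lay between -3.56 and 8.57 intensity units, and the 2 probes of Fgfr3 between -5.24 and 2.24. The weakest signal counted as detected was 10.5 to 13.6 units, depending on the array. A second probe of Fgfr1 (ILMN_2675581) was also undetected, between -5.06 and 3.6 units, so the description of Fgfr1 rests on 1 of its 2 probes. The broad-spectrum ligand Fgf1 had 2 undetected probes, and the higher of them reached 12.7 units in control mouse 16 with a detection p of 0.0125. In Nd2-mutant mouse 32 this probe gave 10.4 units with a detection p of 0.01003, just short of the threshold. Fgf18, a ligand of the Fgf8 subfamily, stayed between -5.00 and 4.56 units.

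Fgf13 was close to the limit of detection. Its probe ILMN_2745480 gave 7.07, 7.48, 12.2 and 9.87 units in Nd2-mutant mice 28, 32, 34 and 35, and 8.35, 16.7, 13.6 and 52.6 in control mice 15, 16, 17 and 37. It was detected on 1 Nd2-mutant and 3 control arrays and therefore was not among the probes tested. Mouse 37 stood above the other control mice, and the strains overlapped. When all probes detected on at least 1 array were tested, the log2 difference was -0.51 with a standard error (SE) of 0.28 and a limma adjusted p of 0.685. The other 2 probes of Fgf13 were undetected, with values from -2.86 to 7.25 units. The third Fgf10 probe, ILMN_1213777, was detected on 1 array of each strain, with a highest value of 17.3 units.

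Testing required detection on the complete set of 4 arrays in either strain or in both, and 6 member probes of 5 genes met this: Fgf2, Fgf5, Fgf7, 2 probes of Fgf10, and Fgfr1. Fgf2 was admitted by its Nd2-mutant arrays alone and Fgf5 by its control arrays alone, so that the filter itself favours a difference in these 2 genes. Values were compared as log2 of intensity plus 16, and all differences between strains are Nd2-mutant minus control. The probe-wise fit covered 10414 probes, and its limma p-values were adjusted over all of them. None of the 6 member probes passed an adjusted p of 0.05, nor did any other tested probe (0%). At an unadjusted p under 0.05 there were 3 member probes, Fgf2, Fgf5 and Fgfr1, beside 7.63% of all tested probes, of which 4.5% were higher and 3.13% lower in the Nd2-mutant fibroblasts.

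Fgf5 was the only tested member whose strains did not overlap. Its probe (ILMN_2642743) gave 2.39, 2.53, 0.0668 and 12.6 units in Nd2-mutant mice 28, 32, 34 and 35, and 28.4, 16.8, 20.7 and 14.4 in control mice 15, 16, 17 and 37. All 4 control mice were above all 4 Nd2-mutant mice, of which mouse 35 was the highest and the only one with a detected signal. The log2 difference was -0.84 with an SE of 0.20 and a 95% interval from -1.29 to -0.40 (exact permutation p = 0.0286, the smallest that 4 against 4 mice can give; limma adjusted p = 0.639). Absence of overlap was found for 4.37% of all tested probes, and for 2.13% with the Nd2-mutant values lower. The size of the difference depended on the constant added before the logarithm, because most Nd2-mutant values were near 0: it was -2.49 with 1 added and -0.37 with 50 added. In males alone it was -0.91 and in females alone -0.78. With each mouse left out in turn it lay between -1.02 and -0.74, which lends no support, since the filter admitted Fgf5 through the control arrays, where it is high. In RNA from whole cultures, fewer cells expressing a gene and less RNA per cell cannot be told apart, here and in the results that follow.

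Fgf2, the basic FGF that is mitogenic for fibroblasts, had higher values in the Nd2-mutant fibroblasts, with overlap. Its probe (ILMN_1239151, chromosome 3) gave 17.8, 26.8, 67.4 and 32.1 units in Nd2-mutant mice 28, 32, 34 and 35. The control mice 15, 16, 17 and 37 had 5.09, 8.95, 26.0 and 18.7 units. Mouse 34 was far above the others, and control mice 17 and 37 lay within the Nd2-mutant range. The log2 difference was 0.73 with an SE of 0.29 and a 95% interval from 0.08 to 1.38 (exact permutation p = 0.114; limma adjusted p = 0.639). The difference was 1.30 with 1 added before the logarithm and 0.39 with 50 added, and 0.47 without Nd2-mutant mouse 34, and in the last 2 cases its unadjusted limma p was above 0.05. In females the difference was 1.23 and in males 0.23, and the interaction of strain and sex did not pass the test (log2 -0.99, 95% interval from -2.22 to 0.23, limma adjusted p = 0.9999, a threshold of 0.05 that 0.0096% of all tested probes passed).

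Fgfr1, the receptor through which fibroblasts respond to Fgf2, showed a smaller difference in the same direction. Its detected probe (ILMN_2727068, chromosome 8) gave 89.8, 70.7, 100.02 and 108 units in Nd2-mutant mice 28, 32, 34 and 35, and 92.9, 47.4, 62.6 and 56.1 in control mice 15, 16, 17 and 37. Control mouse 15 lay among the Nd2-mutant values, while the other 3 control mice were below all of them. The log2 difference was 0.44 with an SE of 0.19 and a 95% interval from 0.01 to 0.86 (exact permutation p = 0.0857; limma adjusted p = 0.639). Mouse 15 was also the array that correlated least with the others, with a mean correlation of 0.934 against 0.963 to 0.974. It had the highest control value of Fgfr1, so leaving it out had to raise the difference, to 0.59, and to remove the overlap. Without control mouse 16 the difference was 0.33. Leaving out Nd2-mutant mouse 28, 34 or 35, or control mouse 16, 17 or 37, raised the unadjusted limma p above 0.05.

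For the paracrine ligands Fgf7 and Fgf10 the strains overlapped. Fgf7, the keratinocyte growth factor (ILMN_2833706, chromosome 2), was detected on all arrays, with 1401, 1635, 2754 and 1727 units in Nd2-mutant mice 28, 32, 34 and 35. The corresponding values of control mice 15, 16, 17 and 37 were 1022, 1149.8, 2110.3 and 1791. Mouse 34 was again the highest of the Nd2-mutant mice, and mouse 17 of the control mice. The log2 difference was 0.32 with a 95% interval from -0.28 to 0.92 (exact permutation p = 0.371; limma adjusted p = 0.730), and in males alone it was -0.04.

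The 2 detected probes of Fgf10, which signals from mesenchyme to epithelium, gave the same picture. ILMN_2736497 (chromosome 13) gave 28.9, 47.5, 159.7 and 80.8 units in Nd2-mutant mice 28, 32, 34 and 35, and 155, 107, 40.1 and 177 in control mice 15, 16, 17 and 37. ILMN_2982771 gave 40.0, 44.8, 202 and 102 units in the same Nd2-mutant mice and 235, 138, 60.9 and 209 in the same control mice. Both probes placed the mice of each strain in nearly the same order, and the ranges of the strains overlapped. The log2 differences between the strains were -0.56 (95% interval from -1.57 to 0.46) and -0.73 (from -1.77 to 0.31), with limma adjusted p of 0.724 and 0.679 and exact permutation p of 0.371 and 0.257. The spread behind these intervals includes that between the sexes, which are balanced over the strains. With sex as a term, ILMN_2982771 had the same difference with an SE of 0.26 at an unadjusted limma p of 0.0173 (limma adjusted p = 0.602). Within each sex both control mice were above both Nd2-mutant mice. With 2 mice against 2 such an order is easier to reach, and it is given here without its share over all tested probes. ILMN_2736497 had an SE of 0.27 at an unadjusted limma p of 0.0705, with overlap within both sexes. With each mouse left out, the difference ran from -0.93 to -0.26 for ILMN_2736497 and from -1.13 to -0.47 for ILMN_2982771. Both were smallest in size without Nd2-mutant mouse 28, and both had an unadjusted limma p under 0.05 without control mouse 17.

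**Figure D2:**
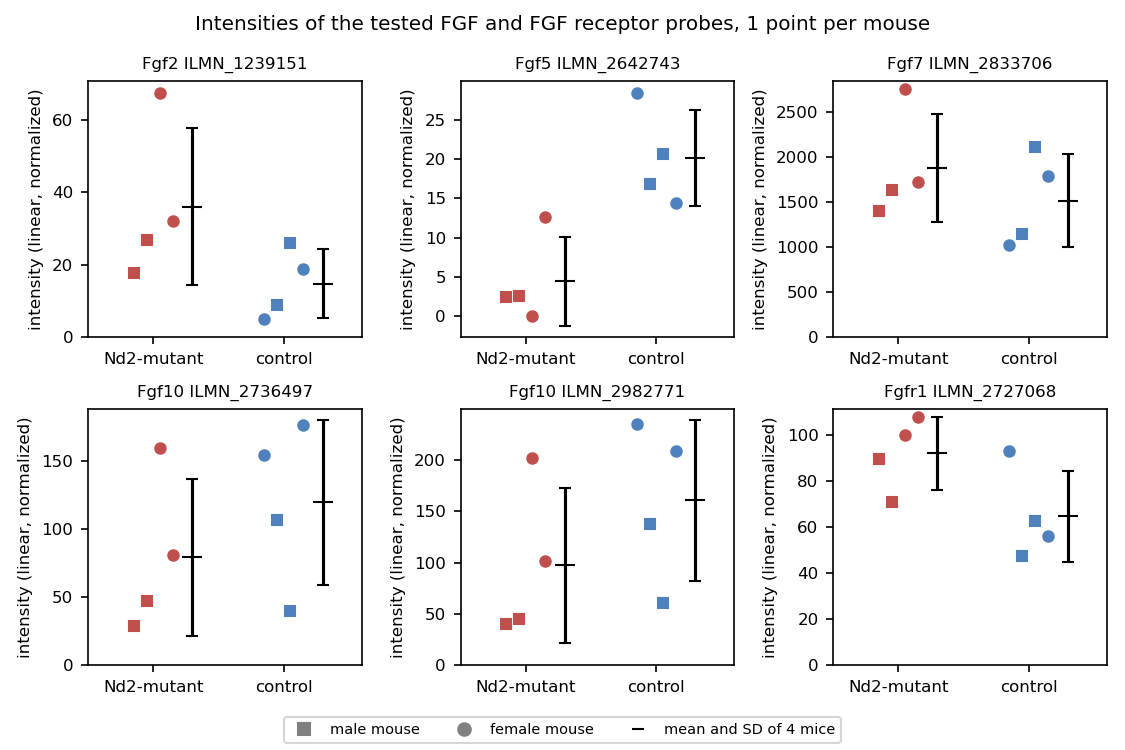
Normalized intensity (y axis, linear) of the 6 tested FGF and FGF receptor probes in Nd2-mutant (red) and control (blue) mice, with males as squares and females as circles; horizontal and vertical bars give the mean and SD of 4 mice. Only for Fgf5 do the strains not overlap, and for both Fgf10 probes the circles lie above the squares within each strain.

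**Figure D3:**
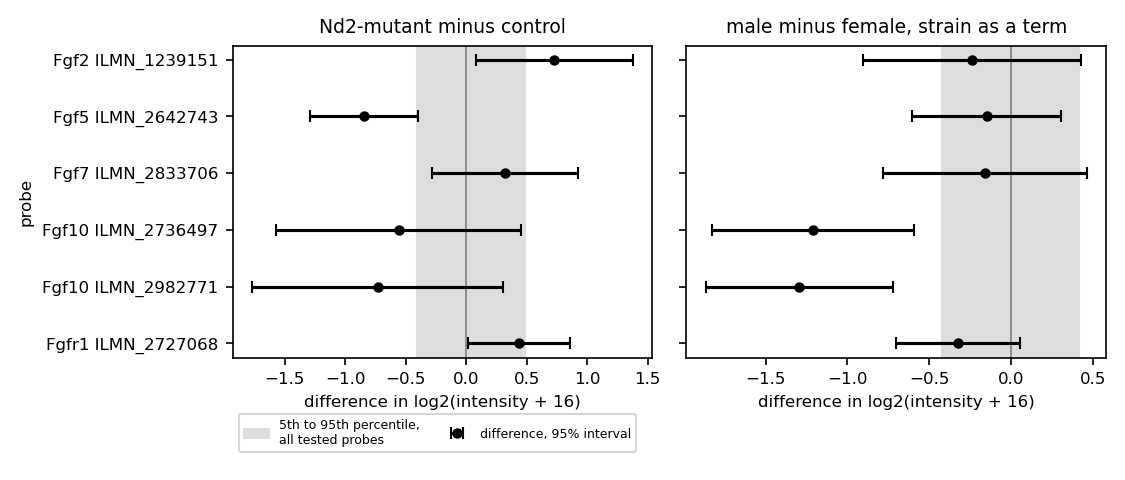
Differences in log2(intensity + 16) of the 6 tested probes with their 95% intervals, between the strains (left) and between the sexes (right); the grey band holds the 5th to 95th percentile of all tested probes, -0.41 to 0.49 between the strains and -0.42 to 0.41 between the sexes. Fgf5 and Fgf2 lie outside the band on opposite sides on the left, and both Fgf10 probes lie below it in both panels.

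The strain counts depended on single mice. The number of member probes at an unadjusted p under 0.05 ranged from 1 to 4 with each mouse left out: it was 1, Fgf5 alone, without Nd2-mutant mouse 35 or without control mouse 16, and 4 without control mouse 17. The count over all tested genes shifted too: 725 were at that p with all mice, 527 without mouse 35, 406 without mouse 16 and 1304 without mouse 17. These are genes and not probes, so they give no share to set beside the member counts. The number of member probes without overlap was 3 of 7 without control mouse 15 (Fgf5, Fgfr1 and Fgf13) and 2 of 6 without Nd2-mutant mouse 28. Fgf13 was tested there only because its 3 remaining control arrays, where it is high, were all detected. With 3 mice against 4, absence of overlap is easier to reach. These counts therefore cannot be set beside the 4.37% of all tested probes found with 4 against 4 mice. Limited to probes detected on all 8 arrays, which leaves out Fgf2 and Fgf5, 1 of 4 member probes had an unadjusted p under 0.05 and 0 were without overlap.

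The spread of Fgf10 within each strain followed the sex of the mice. In the Nd2-mutant strain, the 2 females (mice 34 and 35) were above the 2 males for both probes. In the control strain, the 2 females (mice 15 and 37) were likewise above the 2 males. With strain as a term, the log2 difference of male minus female was -1.21 with an SE of 0.27 for ILMN_2736497 and -1.29 with an SE of 0.26 for ILMN_2982771, which corresponds to 2.31-fold and 2.45-fold lower values in males on the scale of intensity plus 16. The 95% intervals ran from -1.82 to -0.60 and from -1.87 to -0.72. Neither difference passed the adjustment over all tested probes (limma adjusted p = 0.306 and 0.240), a threshold that 0.0192% of all tested probes passed. Exact permutation of sex within the strains gave p = 0.0556 for each probe, the smallest this design allows.

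Females were above males in both strains for 4.46% of all tested probes. At an unadjusted p under 0.05, the only member probes that differed between the sexes were these 2 of Fgf10, beside 8.31% of all tested probes. When the arrays were weighted by their quality, the limma adjusted p values were 0.0183 and 0.00833, but 367 genes were then called between the sexes, against 2 without weights. Within the strains, the 2 probes gave -1.29 and -1.46 in Nd2-mutant and -1.13 and -1.13 in control fibroblasts. Their interactions with strain were -0.16 and -0.33, both with a limma adjusted p of 0.9999. With sex as a term in the strain comparison, the count of member probes at an unadjusted p under 0.05 was 4, with ILMN_2982771 added.

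The other tested members showed smaller differences between the sexes. Male minus female, Fgfr1 had a log2 difference of -0.33 (95% interval from -0.70 to 0.05) and Fgf2 one of -0.24 (from -0.90 to 0.43). For Fgf7 it was -0.16 (from -0.78 to 0.46) and for Fgf5 -0.15 (from -0.61 to 0.31). The limma adjusted p of these 4 probes were all at least 0.664.

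The other genes of the pathway were followed in 7 lists. Over the 6 lists beyond the ligands and over Fgf21, 82 probes of 59 genes were tested, each counted once, with a median log2 difference between the strains of -0.07, beside 0.00 over all tested probes. None passed an adjusted p of 0.05. At an unadjusted p under 0.05 there were 6 probes, or 7.32%, with 2 higher and 4 lower in Nd2-mutant fibroblasts. Of the other 15 FGF ligands on the array, 14 had no detected probe. The exception was Fgf21, an endocrine FGF, with a log2 difference of -0.32 (limma adjusted p = 0.696).

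Among FGF receptor partners (co-receptors, ligand carriers and membrane proteins that bind FGF receptors), 4 of 8 tested probes were higher and 4 lower, with a median of -0.03 that was 0.14 in males alone and without control mouse 15. Flrt3, a transmembrane protein that binds FGF receptors, was the only one at an unadjusted p under 0.05. It gave 60.2, 107, 115 and 95 units in Nd2-mutant mice 28, 32, 34 and 35, and 247, 144, 129 and 119 in control mice 15, 16, 17 and 37. The strains did not overlap, although mouse 34 and mouse 37 were close to each other. Absence of overlap with the Nd2-mutant values lower was found for 2.13% of all tested probes. Its log2 difference was -0.65 with an SE of 0.24 (exact permutation p = 0.0286; limma adjusted p = 0.639).

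Core proteins that carry heparan sulphate, the co-receptor of FGFs, had a median of -0.24, with 9 of 13 probes lower, beside 49.8% of all tested probes. Of these, 3 had an unadjusted p under 0.05, beside 3.13% of all tested probes that were lower at that p. Col18a1, the collagen from which endostatin is cut, had a log2 difference of -0.71 for 1 probe and -0.44 for the other. The glypican Gpc4 had -0.42, and the syndecan Sdc3 -0.32. Sdc3 gave 431, 399, 474 and 449.6 units in Nd2-mutant mice 28, 32, 34 and 35 and 580.1, 543, 572 and 512 in control mice 15, 16, 17 and 37, so that the strains did not overlap. That order, with the Nd2-mutant values lower, was found for 2.13% of all tested probes. The smallest limma adjusted p of this list was 0.639.

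The enzymes that build and trim heparan sulphate had no probe at an unadjusted p under 0.05. Their median was -0.08, with 6 of 13 probes higher, and it was 0.06 when the arrays were weighted and 0.13 in females alone. The polymerase subunit Ext2 (log2 difference -0.22) and its relative Extl2 (0.20) were without overlap, in opposite directions, and each had an exact permutation p of 0.0286. Absence of overlap was found for 4.37% of all tested probes.

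The adaptors of the receptors and the kinases of the ERK cascade stood near 0 as a group, with a median of 0.03 and 15 of 28 probes higher. At an unadjusted p under 0.05, 2 of the 28 probes were higher, beside 4.5% of all tested probes, and 0 were lower. For the kinase Mapk3 (ERK1), ILMN_2715744 had a log2 difference of 0.49 at an unadjusted p under 0.05 (limma adjusted p = 0.639), and the other probe had 0.09, so that its probes disagreed in size.

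Feedback inhibitors and target genes, which are transcribed in response to ERK, did not separate the strains. Of the inhibitors, 6 of 9 probes were lower (median -0.09, and 0.13 without control mouse 15), and of the targets 14 of 19 (median -0.12). Over all tested probes 49.8% were lower. None was at an unadjusted p under 0.05 in either list, and genes with more than 1 probe count more than once. The lists share most of their sprouty, Spred and Dusp genes. The smallest p among the inhibitors belonged to the ERK phosphatase Dusp6, with log2 differences of -0.42 and -0.34, and to the sprouty gene Spry3, with 0.16. Among the targets, the cell cycle gene Ccnd1 had -0.56, -0.42 and -0.41 for its 3 probes (smallest limma adjusted p of the list 0.639).

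**Figure D4:**
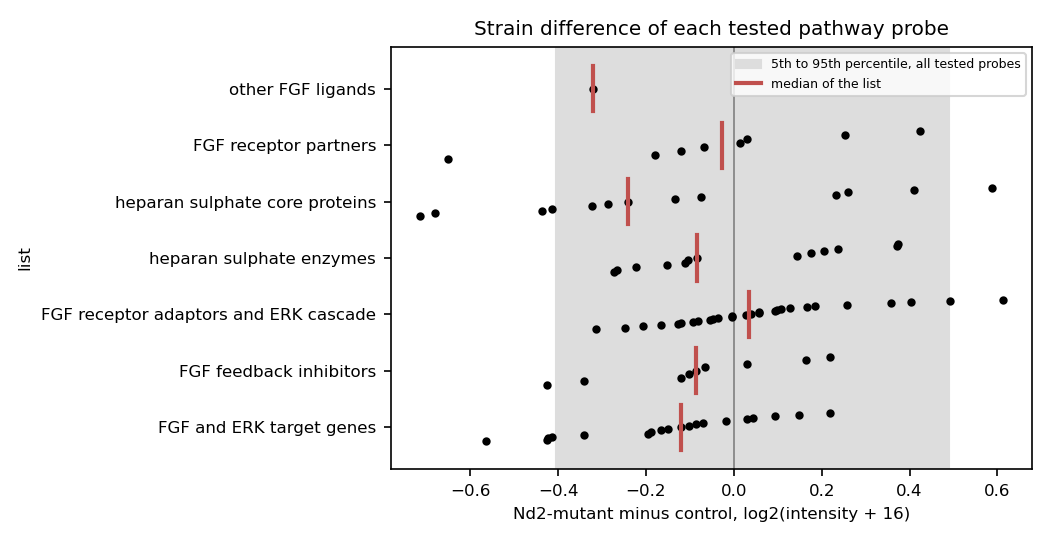
Difference between the strains (x axis, Nd2-mutant minus control, log2(intensity + 16)) of each tested probe in 7 lists of pathway genes, 1 point per probe, with the list's median as a red line and the 5th to 95th percentile of all tested probes in grey. The medians lie between -0.32 for the single other ligand and 0.03 for adaptors and the ERK cascade, and most points fall inside the grey band.

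The comparison of the sexes was also read over these lists, and the genes named from here on were chosen after their values had been seen. In the target list, 7 of 19 probes (36.8%) were lower in males at an unadjusted p under 0.05 and 0 were higher, beside 4.45% of all tested probes that were lower. The median of the list was -0.43, beside 0.01 over all tested probes. These probes belonged to 6 genes: the feedback inhibitors Dusp6 and Spred1, the early response factors Egr1 and Egr2, and the ETS factors Etv4 and Etv5. None passed the adjustment, the smallest limma adjusted p being 0.317.

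Dusp6 had the largest of these differences. Its probe ILMN_1248537 gave 194 and 239.5 units in the female and 59.2 and 122 in the male Nd2-mutant mice. In control mice the females had 259.6 and 251 units and the males 107 and 184. Females were above males in both strains, and the log2 difference of male minus female was -0.99 with an SE of 0.23. The second Dusp6 probe had -0.92.

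Egr1 had a log2 difference of -0.80, Egr2 -0.69, Etv4 -0.64, Etv5 -0.59 and Spred1 -0.54. Females were above males in both strains for 4 of the 19 target probes (21.1%), against 4.46% of all tested probes. The male mice 28 and 16 were the lowest of their strain for Dusp6, Egr1 and Egr2. Without mouse 28 the count of 7 was 4, beside 3.08% of all tested probes. On the linear scale it was also 4, beside 3.63%, and with the methods' t-test it was 3, beside 3.99%. With array weights it was 8, beside 10.7%. The target probes share libraries and a cascade, and are not independent of each other.

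Of the feedback inhibitors, 4 of 9 probes were lower in males at that p, again beside 4.45% of all tested probes, and 3 of them are the Dusp6 and Spred1 probes that the target list also holds. Among heparan sulphate enzymes, 3 of 13 probes were lower in males (Hs3st1 and 2 probes of Ndst1), and among core proteins 2 of 13 (both of Gpc3). Of the receptor partners, Flrt2 was lower in males (log2 -0.80) and Fgfbp3, a carrier protein that releases FGFs from heparan sulphate, was higher (1.10). In the adaptors and the ERK cascade there was no such probe among 28. All of these are at an unadjusted p under 0.05, with limma adjusted p of at least 0.306.

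**Figure D5:**
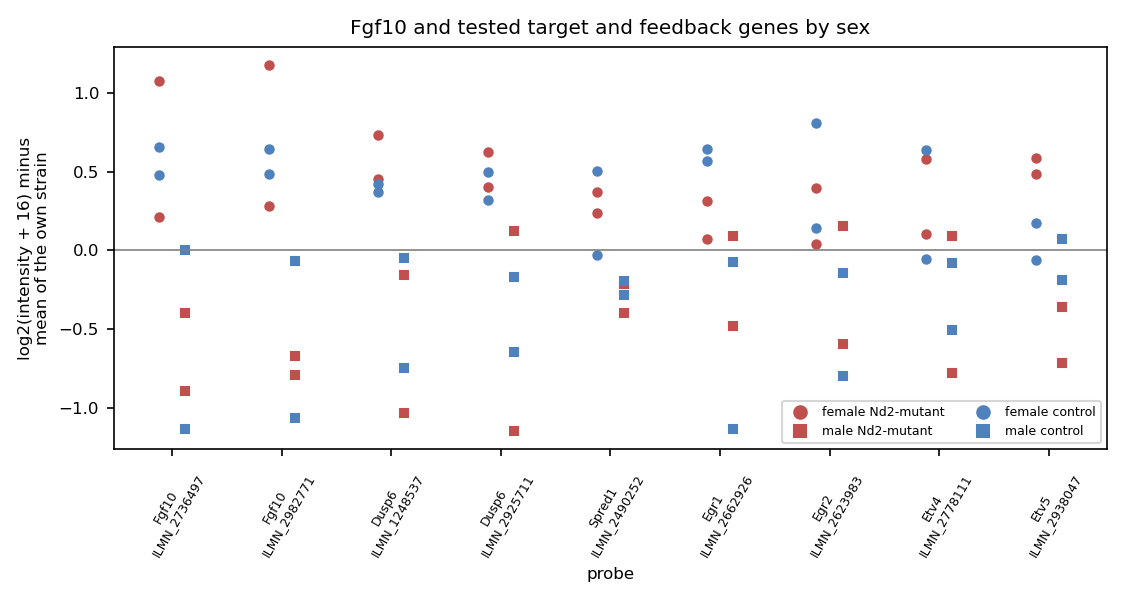
Deviation of each mouse from the mean of its own strain (y axis, log2(intensity + 16)) for the 2 tested Fgf10 probes and the 7 target probes lower in males at an unadjusted p under 0.05; circles are females, squares males, red Nd2-mutant and blue control mice. For Fgf10 the female deviations run from 0.21 to 1.18 and the male ones from -1.13 to 0.00, and the target probes were picked for this difference.

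Markers of other cells were present to differing degrees. All 13 fibroblast markers on the array were detected on all 8 arrays, and the sex-specific transcripts matched the label in 8 of 8 mice. Endothelial markers, with 4 of 9 genes detected on all arrays and Kdr on none, summed to 924 units in control mouse 15 and to at most 473 in the other 7 mice, with Emcn and Esam the brightest. This sum did not separate the strains. Emcn, chosen after its values were seen, lay between 50.9 and 124.3 units in Nd2-mutant and between 125.4 and 272 in control mice. The nearest values, of Nd2-mutant mouse 32 and control mouse 17, were close to each other. Absence of overlap was found for 4.37% of all tested probes. The strains overlapped for Esam, Pecam1 and Tek, also detected on all arrays. Tek had its highest values, 63.1 and 91.2 units, in Nd2-mutant mice 28 and 35. The part of these markers in the Fgfr1 value of mouse 15 was not tested. Of 9 marker lists, 1 separated the strains by its summed intensity: for smooth muscle cells and pericytes, with 6 of 8 genes detected on all arrays and Cnn1 and Rgs5 on none, the sum was 12487 to 15143 units in Nd2-mutant and 15575 to 17638 in control mice, with Acta2 and Actg2 the brightest. Acta2, at 10063 to 13935 units, made up most of that sum, and each of the 6 genes detected on all arrays overlapped between the strains. The part of this list in the difference in Fgf5 was not tested. A further list separated the sexes within both strains: for adipocytes, 1 of 6 genes (Pparg) was detected on all arrays and 4 (Cidec, Fabp4, Lep and Plin) on none, and the sum was 58.5 to 133 units in females and 17.6 to 42.6 in males. Its part in the difference in Fgf10 was not tested. Macrophage markers, of which 3 of 11 genes were detected on all arrays and Ptprc on none, summed to 1818 units in Nd2-mutant mouse 35, with Laptm5 and Lyz2 the brightest, and to at most 611 in the other 7 mice. This mouse was the one with a detected Fgf5 signal among the Nd2-mutant mice, and the part of these markers in the counts that depended on it was not tested. Keratinocyte markers, with Krt14 and Krt17 the brightest and Ivl and Sfn undetected, summed to 234 to 1649.8 units in Nd2-mutant and 407 to 1365 in control mice and separated neither strain nor sex.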

How the data were processed

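RNA from cultured skin fibroblasts of 4 Nd2-mutant and 4 control mice was hybridised to 8 arrays. Per the labels and methods, the authors used GenomeStudio to quantile normalize the signals and, where needed, subtract background. The deposited intensity values are linear and no longer raw, and 26.2% were 0 or lower. A deposited detection p-value stands beside each intensity and compares it with negative control beads. Between 10663 and 11350 probes were detected per array; the number of arrays limits the precision. The 2 deposited tables have the same contents, so that normexp, median centring and other steps from raw signals were not run, and no chip is named to serve as a block. Negative values were raised to 0 and log2 was taken of the value plus 16, which understates differences in dim probes. Probes with 4 of 4 arrays detected in either strain, 10414 probes of 8003 genes, were tested 2-sided with limma 3.58.1 (R 4.3.3), and p-values were adjusted over all of them after Benjamini and Hochberg. Single probes were also tested by exact permutation. The methods name Student's test, which was run as an alternative beside other constants, scales, filters, weights, sex as a term, each sex alone and each mouse left out. The steps were tested on simulated data. The members, the pathway lists and the markers were chosen with earlier results of these data known. All member probes were named, and of each list the genes at an unadjusted p under 0.05 or without overlap between the strains, otherwise the 2 with the smallest p; a gene meeting this rule is left out here. Mice carry separate numbers in each strain and are separate animals.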

Additional observations from a re-analysis of the deposited data

How the results depend on the processing

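The number of genes at an adjusted p under 0.05 between the strains was 0 (limma; 725 genes at an unadjusted p under 0.05), 1 by the methods' t-test and 3 with no filter. The recomputations reuse the same mice, and several leave the estimate unchanged, so that a kept direction lends no support. For Fgf2 and Fgf5 the filter itself also favours the direction seen between the strains. The direction of the strain difference of the tested member probes was kept in 123 of 124 recomputations and that of the sex difference in 102 of 106. The exceptions were the strain difference of Fgf7 in males alone (-0.041), the sex differences of Fgf2 and Fgf7 without Nd2-mutant mouse 34, and that of Fgf5 without Nd2-mutant mouse 35 and without mice 15 and 35 (0.19). With each mouse left out, these sex differences ran from -0.49 to 0.019 for Fgf2, from -0.41 to 0.046 for Fgf7 and from -0.30 to 0.030 for Fgf5. No strain difference of a member passed the adjusted threshold in any of these; the only sex differences that did were the 2 of Fgf10 with array weights. Their log2 values ranged from -1.45 to -1.0 and from -1.53 to -1.08 with each mouse left out.

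The count of 3 member probes at an unadjusted p under 0.05 between the strains was 1 on the linear scale, by the methods' t-test, with probes detected on all 8 arrays and in females alone. With each mouse left out it was 1 to 4, while the count of all tested genes, not probes, at that p ran from 406 to 1304. The count of 1 member probe without overlap was 0 with probes detected on all 8 arrays. It was 3 of 19 with no filter, where undetected probes of Fgf13 and Fgfr3 enter. Without mice 15 and 35 it was 3, and with each mouse left out 1 to 3. Where mouse 15 is left out, Fgf13 enters through the remaining control arrays, where it is high. In males alone and in females alone it was 4, but there 2 mice face 2, and absence of overlap is easier to reach. None of the counts with mice left out or in 1 sex can be set beside the 4.37% of all tested probes found with 4 against 4 mice. For the sexes, the count of 2 was 5 with array weights and 2 to 3 with each mouse left out. The count of 7 target probes lower in males was 4 on the linear scale, beside 3.63% of all tested probes. It was 3 by the methods' t-test, beside 3.99%, and 4 to 7 with each mouse left out, beside 2.7% to 8.1%. That count and its recomputations, and the omission of mice 15 and 35 together, were added after seeing the data. With each mouse left out, the list median changed sign for feedback inhibitors (-0.16 to 0.13) and receptor partners (-0.09 to 0.14). It also did so for heparan sulphate enzymes (-0.15 to 0.09) and for adaptors and the ERK cascade (-0.02 to 0.08). The median stayed negative for core proteins (-0.31 to -0.15), targets (-0.21 to -0.03) and the single other ligand (-0.51 to -0.20). The cause of these shifts was not tested. With 2 mice per strain and sex, and values near background for Fgf2, Fgf5 and Fgf13, small differences were not detectable. No paired analysis was possible because mouse numbers differ between the strains.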
